A study of Homo sapiens with 18 samples.

Results

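Transcripts of the microRNA silencing pathway were followed through METTL3 inhibition in HEK293T cells. The set holds 10 genes, chosen by symbol for their roles: the Argonautes AGO1, AGO2 and AGO3, the scaffolds TNRC6A, TNRC6B and TNRC6C, and the processing and export factors DROSHA, DGCR8, XPO5 and DICER1. All 10 were found among the 8996 genes of the deposited table. HEK293T is a human embryonic kidney cell line, labelled wild type, and all 18 samples come from it. Cells received STM2457, a small-molecule inhibitor of the m6A methyltransferase METTL3, or the solvent DMSO for 3 h. They then received 100 µM 4-thiouridine (s4U) for 90 or 180 min, or no label, with 3 samples for each of the 6 combinations. SLAM-seq reads s4U in new RNA as T-to-C conversions, and from these the authors fitted, for each gene in each treatment, 1 half-life and 1 rate of synthesis.

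The table has no values per sample, so no spread, interval or p-value can be given, and the depth behind each fit is unknown. Per the labels, a library with less input than the others was among those sequenced, and which sample it is cannot be told. A gene is called longer-lived when its half-life with STM2457 exceeded that with DMSO by over 1.5-fold, and shorter-lived for the opposite; this is a rule of size and no test. The time unit is not named in the table. Hours are inferred from the longest half-life, 69.3, the value that a decay rate of 0.01 gives. None of the 10 genes reached that ceiling. Of 7 genes that HEK293T cells are known to express, NEFL, NEFM, VIM, KRT18 and CDH2 were in the table, and PAX2 and KRT8 were not. Of 8 markers of other cell types, COL1A1 and CDX2 were.

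MicroRNAs are cut from long primary transcripts in the nucleus by the nuclease DROSHA with its RNA-binding partner DGCR8, carried to the cytoplasm by XPO5 and cut again by DICER1. An Argonaute protein holds the mature strand and pairs it with target mRNAs, and a TNRC6 protein bound to the Argonaute recruits deadenylases that shorten the poly(A) tail. METTL3 places m6A on mRNA within the DRACH motif, a word of 5 bases with A, G or T first, A or G second, then A and C, and A, C or T last. The methyl group sits on the central A, and sites close to exon junctions are known to be depleted of it.

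TNRC6A and TNRC6B were the 2 longer-lived transcripts among the 10, at 1.89-fold and 1.71-fold. None was shorter-lived, and 8 stayed within 1.5-fold. Across the table these shares were 28.5% longer-lived and 24.9% shorter-lived, so 2 of 10 longer-lived is near the background share. The median log2 half-life ratio of the 10 genes was -0.12, against -0.01 for all genes. Nearest to the rule without passing it were DGCR8 and AGO1, both at 1.39-fold shorter, and XPO5 at 1.34-fold shorter; in the other direction it was DICER1, at 1.24-fold longer.

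The TNRC6 genes encode paralogous scaffolds, and in the annotation (GENCODE release 29, GRCh38) each carries 1 very long coding exon. Its coding part measured 2586 nt in TNRC6A, 2349 nt in TNRC6B and 2604 nt in TNRC6C, against a median of 267 nt for the longest coding exon over 8527 genes. DRACH motifs that lie in coding sequence 100 nt or more away from any exon junction, called far coding motifs here, numbered 77, 78 and 78. The median gene had 3, and 98.6% of genes had fewer than TNRC6A. The 90-nt coding stretch with the most far coding motifs is given for each scaffold. Capitals mark the motifs on the sense strand, and overlapping motifs were all counted. The motifs are a feature of sequence, not a measurement of m6A.
TNRC6A (chr16:24789991-24790080, + strand): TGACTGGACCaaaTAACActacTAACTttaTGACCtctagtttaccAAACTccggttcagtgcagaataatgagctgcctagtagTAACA
TNRC6B (chr22:40265303-40265392, + strand): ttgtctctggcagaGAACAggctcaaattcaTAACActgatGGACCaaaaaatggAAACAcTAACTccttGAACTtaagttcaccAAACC
TNRC6C (chr17:78049587-78049676, + strand): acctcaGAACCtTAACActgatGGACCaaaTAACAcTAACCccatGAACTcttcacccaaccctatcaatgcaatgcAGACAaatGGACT

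Each stretch was chosen within its own gene, without regard to the other paralogs. The TNRC6A stretch held 7 motifs, the TNRC6B stretch 7 and the TNRC6C stretch 8, and all 3 share the run TGGACCAAA. TNRC6B and TNRC6C share a run of 18 nt here, TAACACTGATGGACCAAA, and TNRC6A and TNRC6C a run of 17 nt, TGGACCAAATAACACTA. Of all genes with a coding transcript, 74.9% had at least 1 far coding motif.

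TNRC6A (ENSG00000090905.19, chromosome 16, 24610209 to 24827632) had a fitted half-life of 2.10 h under DMSO and 3.96 h under STM2457 (log2 ratio 0.92). Its ratio was higher than that of 78.7% of all genes. TNRC6B (ENSG00000100354.21, chromosome 22, 40044817 to 40335808) had 1.64 h under DMSO and 2.80 h under STM2457 (log2 ratio 0.77). Both transcripts were short-lived in DMSO, where 13.5% and 7.75% of genes had shorter half-lives. At these values 62.9% of TNRC6A mRNA would be replaced within 180 min in DMSO and 40.9% in STM2457, and for TNRC6B 71.9% and 52.4%.

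TNRC6C (ENSG00000078687.17, chromosome 17, 77959240 to 78108835) kept nearly the same half-life, 1.44 h under DMSO and 1.48 h under STM2457. Its log2 ratio of 0.04 was 0.88 below that of TNRC6A. Their numbers of far coding motifs, 78 and 77, were close. TNRC6C had fewer than TNRC6A at 50 nt (95 against 98) and at 200 nt (65 against 69). In its APPRIS principal transcript TNRC6C had 69, against 77 in TNRC6A. The longer-lived TNRC6B had fewer than TNRC6C at 50 nt (93) and at 200 nt (63), and 78 in its APPRIS principal transcript. With 1 fitted value per treatment, the difference among the paralogs could not be tested. TNRC6C-AS1, on the other strand, overlaps the 3′ end of TNRC6C, and the sources used here do not say whether reads were counted by strand.

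Synthesis rates of the 3 scaffolds lay lower in STM2457 than in DMSO. In the fit's own units, TNRC6A had 1199 in DMSO and 909.5 in STM2457 (log2 ratio -0.40). TNRC6B had 969.6 and 725.7 (log2 ratio -0.42), and TNRC6C had 864.3 and 583.5 (log2 ratio -0.57). All 3 ratios lay below the lower quartile of all genes, -0.37, as did that of AGO3, -0.41. None passed 1.5-fold, and TNRC6C came nearest, at 1.48-fold lower. Both quantities were fitted by the authors per gene, and whether they vary independently is not known. Multiplied together, they imply 1.43-fold the DMSO abundance for TNRC6A, 1.28-fold for TNRC6B and 0.692-fold for TNRC6C.

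**Figure D1:**
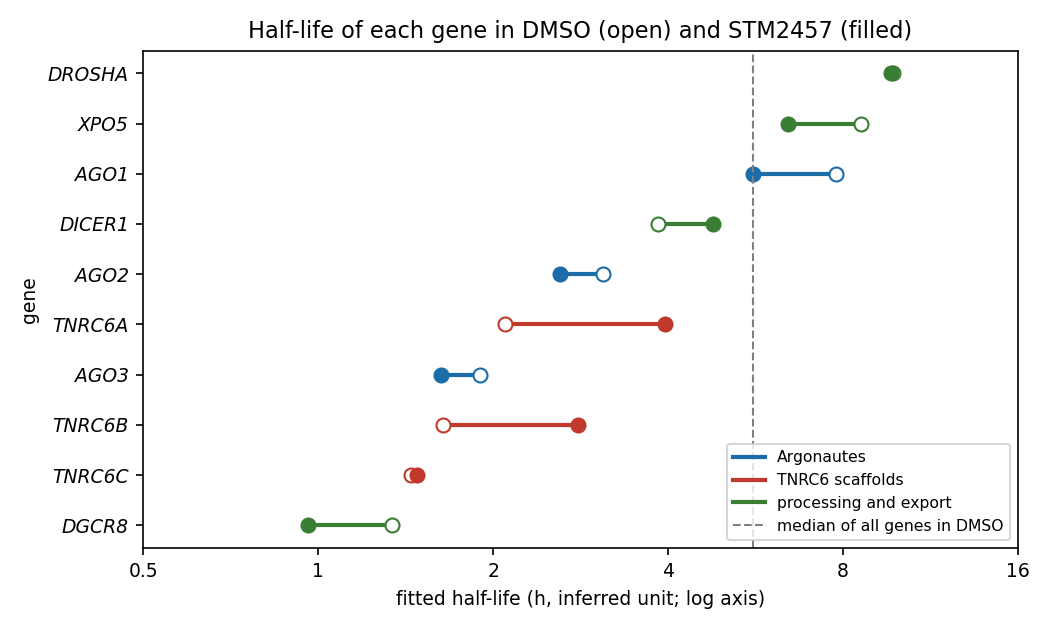
Fitted half-life of each of the 10 genes on a log axis, with an open circle for DMSO and a filled circle for STM2457, coloured by role; the dashed line is the median of all genes in DMSO, 5.61 h. The longest shifts to the right belong to TNRC6A (2.10 to 3.96 h) and TNRC6B (1.64 to 2.80 h), and the 3 Argonautes lie to the left of their DMSO values.

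The Argonautes hold the guide strand, and AGO2 is the one best known for cutting fully paired targets. Their coding sequences are split over 19 exons each, with no coding exon longer than 200 nt in AGO1 and AGO2 and 209 nt in AGO3. Far coding motifs numbered 0 in AGO1, 0 in AGO2 and 1 in AGO3, although 47, 43 and 63 motifs were found in the coding sequences at any distance from a junction. The AGO3 stretch given here holds its only far coding motif, for contrast with the TNRC6 stretches.
AGO3 (chr1:35972045-35972134, + strand): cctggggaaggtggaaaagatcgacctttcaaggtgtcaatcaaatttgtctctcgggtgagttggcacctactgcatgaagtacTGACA

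All 3 Argonaute transcripts had half-lives below their DMSO values in STM2457, each within 1.5-fold. AGO1 (ENSG00000092847.12, chromosome 1, 35869808 to 35930528) had 7.77 h under DMSO and 5.60 h under STM2457 (log2 ratio -0.47). AGO2 (ENSG00000123908.12, chromosome 8) had 3.09 and 2.61 h (log2 ratio -0.25). AGO3 (ENSG00000126070.20, chromosome 1, 35930718 to 36072500) had 1.90 and 1.63 h (log2 ratio -0.22). AGO4, the remaining human Argonaute and no member of the set, had 3.11 and 3.55 h (log2 ratio 0.19).

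The Argonautes covered a wide range of stability. In DMSO, AGO1 had a longer half-life than 64.2% of all genes, and AGO3 than 11.0%. AGO1 and AGO3 are neighbours on the same strand with 189 bases between their annotated ends. The 3′ untranslated regions of the chosen transcripts measured 10924 nt in AGO1, 11891 nt in AGO2 and 16758 nt in AGO3, against a median of 1029 nt. DRACH motifs there numbered 179, 205 and 292. A long 3′ untranslated region was not particular to the Argonautes. It measured 12569 nt in TNRC6B, 2423 nt in TNRC6A and 1195 nt in TNRC6C. Synthesis differed in sign. AGO1 had 65.1 in DMSO and 87.4 in STM2457 (log2 ratio 0.43), AGO2 had 351.7 and 338.5 (-0.05), and AGO3 had 210.5 and 158.0 (-0.41). The implied abundance of AGO3 was 0.644-fold its DMSO value, the lowest of the 10 genes, and that of AGO1 was 0.968-fold.

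In the nuclear step, DROSHA and DGCR8 form the Microprocessor and stood at opposite ends of the set. DROSHA (ENSG00000113360.16, chromosome 5, 31400497 to 31532196) had the longest half-life, 9.77 h under DMSO and 9.67 h under STM2457 (log2 ratio -0.01). DGCR8 (ENSG00000128191.16, chromosome 22, 20080232 to 20111877) had the shortest, 1.34 and 0.961 h (log2 ratio -0.48). In STM2457 only 1.13% of all genes had a shorter half-life than DGCR8. Its synthesis was 461.9 in DMSO and 575.9 in STM2457 (log2 ratio 0.32), so the implied abundance was 0.896-fold. DROSHA synthesis was 89.2 and 80.0 (log2 ratio -0.16). Only the last bases of DGCR8 are overlapped on the other strand by TRMT2A (20111866 to 20117392), which is also in the table. TRMT2A had 3.79 h under DMSO and 4.37 h under STM2457. The antisense gene AC006547.2 (20110821 to 20111875), absent from the table, lies within DGCR8 close to its 3′ end.

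DGCR8 mRNA is itself known as a substrate of the Microprocessor, and its second exon in the chosen transcript holds the following microRNAs, from RefSeq (GRCh38.p14). Capitals mark the seed, bases 2 to 8, and no 2 of these seeds are alike.
hsa-miR-3618: uGUCUACAuuaaugaaaagagc
hsa-miR-1306-5p: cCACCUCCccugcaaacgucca
hsa-miR-1306-3p: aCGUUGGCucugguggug

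The stretch of DGCR8 richest in far coding motifs overlaps MIR1306, and its motifs lie after the mature 3p arm. DGCR8 had 11 far coding motifs and DROSHA 13, and the richest stretch of each held 3. Both are shown with the motifs in capitals.
DGCR8 (chr22:20086070-20086159, + strand): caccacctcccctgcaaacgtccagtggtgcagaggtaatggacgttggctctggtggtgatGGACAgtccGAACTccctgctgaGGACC
DROSHA (chr5:31526701-31526790, - strand): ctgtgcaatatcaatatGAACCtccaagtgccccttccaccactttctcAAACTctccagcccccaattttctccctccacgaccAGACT

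XPO5, the exporter of precursor hairpins (ENSG00000124571.18, chromosome 6, 43522330 to 43576075), had 8.59 h under DMSO and 6.43 h under STM2457 (log2 ratio -0.42). Its synthesis was 163.9 and 172.2 (log2 ratio 0.07). Like the Argonautes it has short coding exons, at most 200 nt, and 1 far coding motif. Its 3′ end is overlapped on the other strand by POLR1C, at 1.70 h under DMSO and 1.89 h under STM2457.

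DICER1, which cuts the precursor to the mature duplex (ENSG00000100697.14, chromosome 14, 95086228 to 95158010), had 3.85 h under DMSO and 4.79 h under STM2457 (log2 ratio 0.31). Its synthesis was nearly level, at 280.9 and 275.3 (log2 ratio -0.03). It had 33 far coding motifs, with a longest coding exon of 889 nt. Its richest stretch held 4 motifs. An intron of the gene holds MIR3173 on the same strand.
DICER1 (chr14:95124406-95124495, - strand): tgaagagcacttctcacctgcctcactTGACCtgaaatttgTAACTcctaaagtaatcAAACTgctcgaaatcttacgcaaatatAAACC

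Ordered by half-life in DMSO, the genes ran DROSHA, XPO5, AGO1, DICER1, AGO2, TNRC6A, AGO3, TNRC6B, TNRC6C and DGCR8, from 9.77 to 1.34 h. In STM2457 the first 4 and the last 2 kept their places, and TNRC6A and TNRC6B moved above AGO2. Which neighbours differ beyond their spread cannot be said without values per sample. Half-lives in DMSO were below the median of all genes, 5.61 h, for 7 of 10 genes, and below the lower quartile, 2.99 h, for 5.

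**Figure D2:**
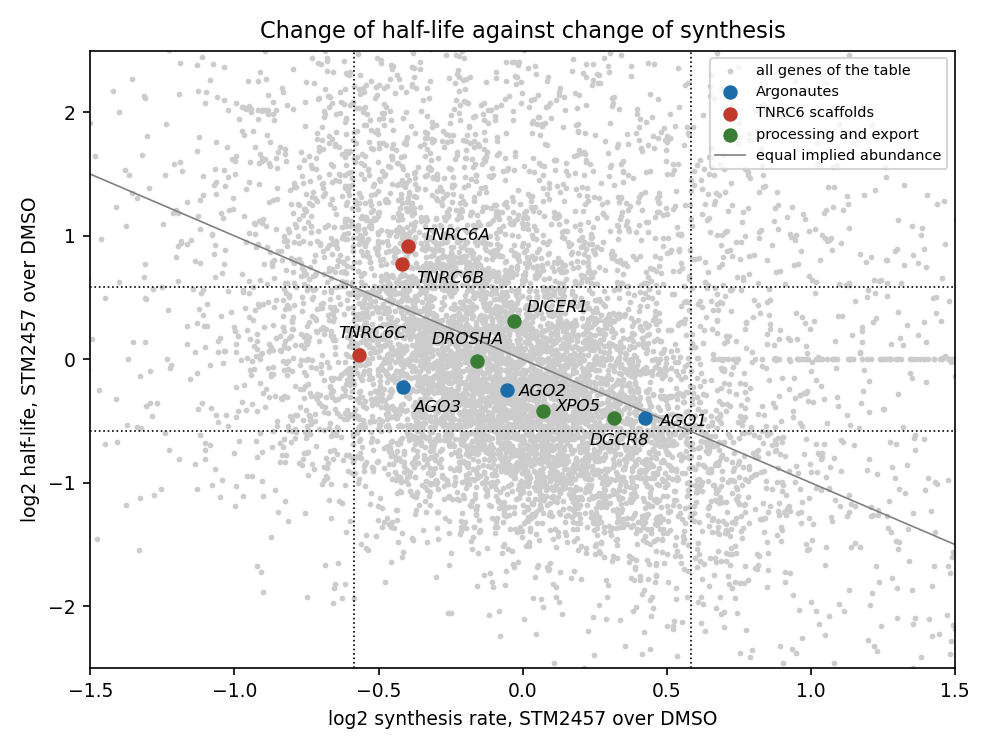
Log2 ratio of half-life against log2 ratio of synthesis, STM2457 over DMSO, for the 10 genes (coloured by role) and all genes (grey; 826 lie outside the axes); dotted lines mark 1.5-fold and the grey line equal implied abundance. The TNRC6 genes lie to the left of 0 in synthesis, as do AGO2, AGO3, DICER1 and DROSHA. Only TNRC6A and TNRC6B lie above the upper dotted line.

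No member passed 1.5-fold in synthesis, where 12.6% of all genes were higher and 13.2% lower. Synthesis ratios ran from -0.57 in TNRC6C to 0.43 in AGO1, with a median of -0.11 against -0.06 for all genes. Half-life and synthesis ratios had opposite signs in 7 of 10 genes, and in 60.9% of all genes. A rise in abundance was implied only for TNRC6A, TNRC6B and DICER1 (1.22-fold). None of these rises went beyond what 6 h of synthesis without decay could give. The other members implied a fall, which this bound cannot check. For TNRC6A this bound was 2.98-fold.

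By far coding motifs at 100 nt, the genes fell into 2 classes. The 6 genes with 10 or more were TNRC6A, TNRC6B, TNRC6C, DICER1, DROSHA and DGCR8. Of these, 4 had log2 half-life ratios above 0 and 2 were longer-lived. Of all 2154 genes with 10 or more, 69.4% had ratios above 0 and 45.8% were longer-lived. The 4 genes with 0 or 1 far coding motif, AGO1, AGO2, AGO3 and XPO5, had ratios from -0.47 to -0.22. Of the 2142 genes with 0, 37.1% had ratios above 0, and of the 2540 with 1 to 3, 38.3%. Within the class of 10 or more, DGCR8 (11 motifs) and DROSHA (13 motifs) had ratios below 0, at -0.48 and -0.01, and TNRC6C (78 motifs) had 0.04. The split rests on the distance of 100 nt and on coding sequence, since at 50 nt all 10 genes had 10 or more. In the 3′ untranslated region, motifs as far from a junction numbered 179 in AGO1, 205 in AGO2 and 292 in AGO3. In the scaffolds they numbered 51 in TNRC6A, 242 in TNRC6B and 23 in TNRC6C.

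**Figure D3:**
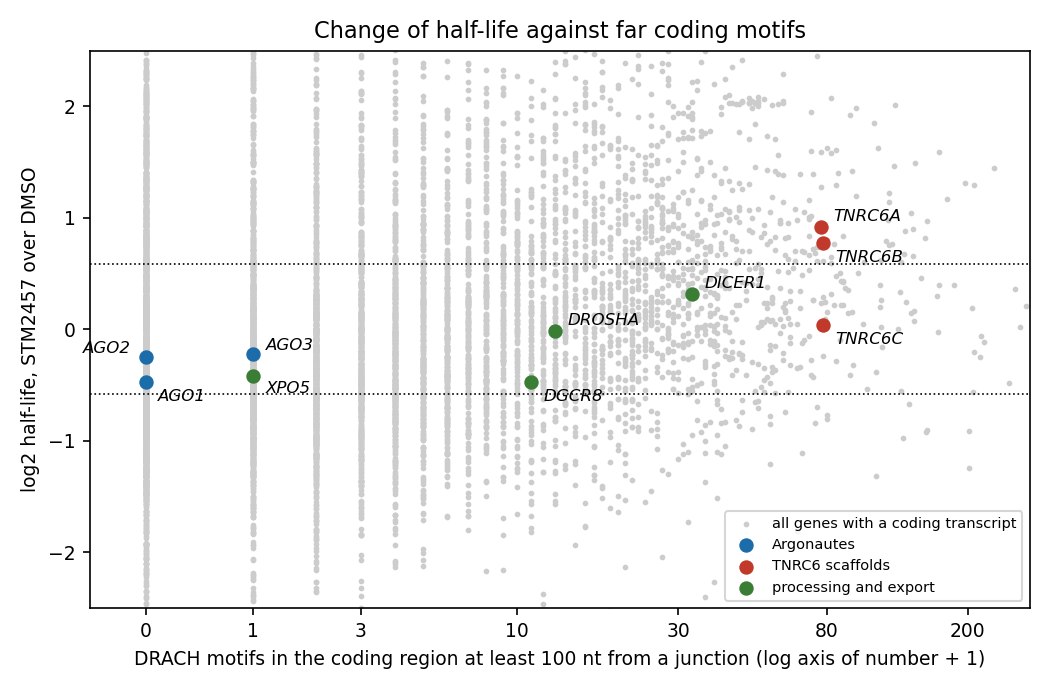
Log2 half-life ratio, STM2457 over DMSO, against the number of far coding motifs (log axis of number + 1) for the 10 genes, coloured by role, and all genes with a coding transcript (grey; 547 lie outside the axes). AGO1, AGO2, AGO3 and XPO5 lie at 0 or 1 motif and below 0, and the TNRC6 genes at 77 or 78 motifs, with TNRC6C near 0.

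The genes of like pattern were taken as those with the smallest Euclidean distance over 4 log2 values, half-life and synthesis in each treatment. For TNRC6A this was KAT6A, a histone acetyltransferase, at 1.84 h under DMSO and 4.50 h under STM2457 (distance 0.295). For TNRC6B it was IRF2BP2, at 1.52 and 2.77 h (distance 0.243), and for TNRC6C it was ZNF3, at 1.56 and 1.64 h (distance 0.225). AGO1, AGO2 and AGO3 lay nearest to VPS45, RAB14 and UGCG, and DICER1, DROSHA, DGCR8 and XPO5 to CHERP, RCN2, GFOD1 and CBX1. A likeness over 4 fitted values is a description only.

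The other genes of the pathway were counted in 5 lists with 84 genes in the table. Argonaute partners, as listed here, include chaperones that load Argonautes, proteins that bind or modify them, and AGO4, itself an Argonaute. Of 18, 10 (55.6%, against 24.9% of all genes) were shorter-lived and 2 (11.1%, against 28.5%) longer-lived. Their median log2 ratio was -0.73. At 2-fold, 4 of 18 were shorter-lived, against 11.3% of all genes. IPO8, an importin, went from 14.9 to 3.93 h (3.80-fold shorter), and the co-chaperone STIP1 from 9.55 to 3.65 h (2.62-fold shorter). The implied abundance of IPO8 was 0.285-fold its DMSO value, and no bound was set for falls. LIMD1, a scaffold that binds Argonautes, was 3.08-fold longer-lived, from 1.65 to 5.08 h, while WTIP of the same family stayed within 1.5-fold at 3.40 and 4.98 h. HSP90AB1, a chaperone, was listed at 34.3 h under DMSO and at the ceiling with the inhibitor, beyond the bound set by 6 h of synthesis.

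Among silencing effectors, the deadenylation, decapping and translation factors that act downstream of TNRC6, 9 of 24 (37.5%, against 24.9% of all genes) were shorter-lived and 2 (8.33%, against 28.5%) longer-lived, with a median of -0.38. At 2-fold, 0 were shorter-lived, against 11.3% of all genes. The decapping scaffold EDC4 was 1.97-fold shorter-lived and EIF4ENIF1, a partner of eIF4E, 1.96-fold, from 3.67 to 1.88 h. Of 8 CCR4-NOT subunits, the deadenylase complex that TNRC6 recruits, 4 were shorter-lived, against 24.9% of all genes: CNOT1, CNOT7, CNOT10 and CNOT11, a subgroup named after its values were seen. CNOT8 stayed within 1.5-fold at 2.25 and 2.98 h, as did PAN3 of the other deadenylase, at 3.00 and 3.89 h. The longer-lived members, EDC3 and PABPC1, were named after their values were seen; both exceed the bound of 6 h of synthesis.

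Nuclear cofactors had 3 longer-lived and 3 shorter-lived genes of 15, with a median of -0.23. Each share was 20%, below the 28.5% and 24.9% of all genes. DDX5, a helicase of the Microprocessor, went from 7.84 to 21.0 h, and ERH from 39.6 h to the ceiling. Both exceed the bound on implied abundance. SRSF3, a splicing factor, was 1.67-fold shorter-lived and the export receptor XPO1 1.56-fold. The third shorter-lived gene, RAN, the GTPase that XPO5 needs, went from 31.3 to 16.7 h and was named after its values were seen.

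Partners of precursor processing had 2 longer-lived and 1 shorter-lived gene of 7, with a median of 0.13. These shares were 28.6% and 14.3%, against 28.5% and 24.9% of all genes. TUT7, which adds uridines to precursors, was 2.05-fold longer-lived, from 2.90 to 5.94 h. The other longer-lived gene, PRKRA, a DICER1 partner named after its values were seen, went from 8.07 to 26.1 h, beyond the bound. ADAR, an RNA editing enzyme, was 1.57-fold shorter-lived. LIN28B, which blocks let-7 maturation, had 6.22 and 7.35 h, and the exonuclease DIS3L2 had 3.43 and 2.76 h, both within 1.5-fold.

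Transcripts that host microRNAs had 2 longer-lived and 2 shorter-lived genes of 20, with a median of -0.20. Each share was 10.0%, below the 28.5% and 24.9% of all genes. CTDSPL, host of MIR26A1, was 1.51-fold longer-lived and SREBF2, host of MIR33A, 1.72-fold shorter-lived. FTX had 0.971 and 1.14 h and MIR600HG 3.85 and 2.66 h, within 1.5-fold, and SKA2 went from 26.3 h to the ceiling, also beyond the bound. MIR17HG, named after its values were seen, was the shorter-lived extreme of the list, from 1.04 to 0.371 h (2.79-fold shorter). The STM2457 value lay below 0.5 h, the lower end of the range set for naming genes. The shortest labelling was 90 min, and whether the fit can resolve such a half-life was not tested. With that limit, the fitted synthesis of MIR17HG was 552.7 in DMSO and 1367 in STM2457 (log2 ratio 1.31), so its implied abundance was 0.885-fold. It lies on chromosome 13 (91347820 to 91354579) and holds 6 microRNA hairpins, which the Microprocessor cuts from it. The arms best known as mature guides are shown, from RefSeq (GRCh38.p14), with the seed in capitals. They fall into 4 seeds, since miR-17-5p shares its seed with miR-20a-5p, and miR-19a-3p with miR-19b-3p.
hsa-miR-17-5p: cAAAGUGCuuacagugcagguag
hsa-miR-20a-5p: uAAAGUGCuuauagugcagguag
hsa-miR-18a-5p: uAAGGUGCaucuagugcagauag
hsa-miR-19a-3p: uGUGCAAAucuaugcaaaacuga
hsa-miR-19b-3p: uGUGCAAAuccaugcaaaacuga
hsa-miR-92a-3p: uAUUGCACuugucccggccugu

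These libraries read the 3′ ends of polyadenylated RNA, so values for MIR17HG describe its polyadenylated transcript and say nothing of the mature microRNAs.

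**Figure D4:**
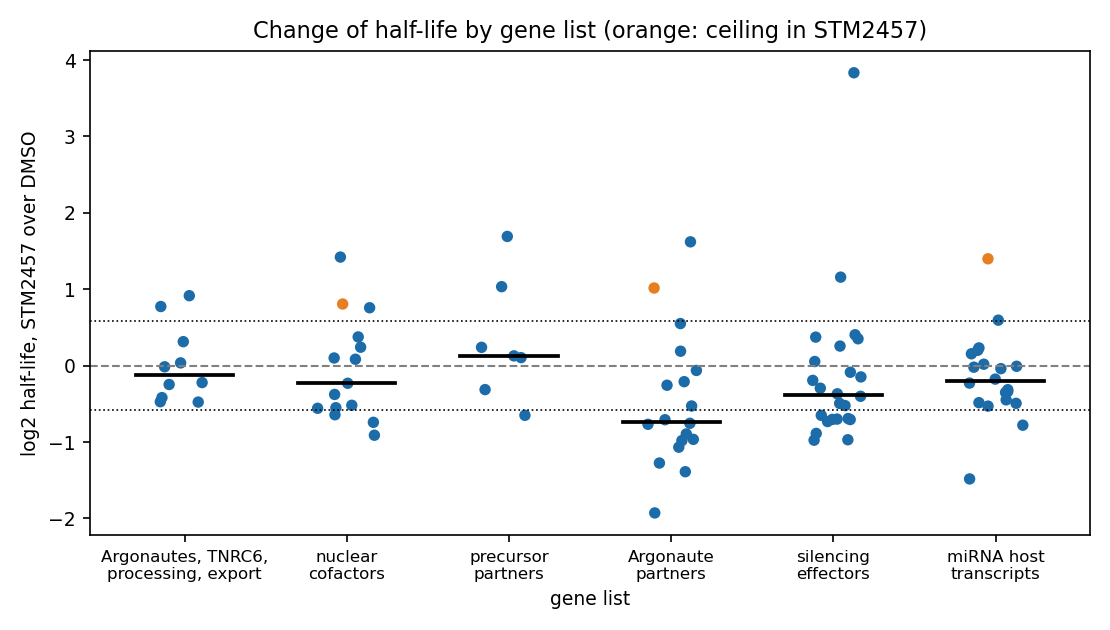
Log2 half-life ratio, STM2457 over DMSO, of each gene in the 10-gene set and in 5 further pathway lists; bars are medians, dotted lines mark 1.5-fold, the dashed line is the median of all genes and orange points reached the ceiling in STM2457. Most Argonaute partners lie below 0, with a median of -0.73, against -0.12 for the 10 genes.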

How the data were processed

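SLAM-seq of HEK293T cells gave 18 samples. The submitters' processing notes name FastQC 0.11.9, STAR 2.7.8a and the build GRCh38.p12, with no order or settings. The sources used here do not name the kinetics software, the annotation or any filter on genes. Per the file headers, the authors deposited for each gene in each treatment 1 half-life and 1 rate of synthesis, fitted values with no replicate columns, and log2 ratios of STM2457 over DMSO. The log2 ratios were recomputed and differed from the authors' by at most 1.27e-14 for half-lives. Synthesis is in the fit's own units; no source says whether it is scaled by length, so it was compared only within a gene, and 3 genes had no finite synthesis ratio. Implied abundance is synthesis times half-life. Its upper bound adds 6 h of synthesis at the higher of both rates, with no decay, to the DMSO level. No lower bound was set, so implied falls were not checked in this way.

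No test was made. The members, lists and rules were chosen with earlier results of these data known. Named genes were all members, the 2 highest and 2 lowest ratios of each further list with both half-lives between 0.5 and 24 h, genes at the ceiling in STM2457 alone, and the nearest gene to each member; 1 gene that this rule names is not reported here. Motifs came from the transcript with the longest coding sequence in GENCODE release 29. All 10 symbols matched, 3 with the same identifier version. Counting and motif search were tested on simulated data. Python 3.11.15, NumPy 2.4.6, pandas 2.3.3 and Matplotlib 3.10.9 were used.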

Additional observations from a re-analysis of the deposited data

How the results depend on the processing

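No paired analysis was possible because the table holds 1 fitted value per gene and treatment, and for the same reason no replicate could be left out. The depth behind each fit is unknown, so the precision of a ratio cannot be given. At 2-fold no member was longer-lived (0, against 2; 19.7% of all genes). At a looser rule of 5 to 4, 3 members were shorter-lived (AGO1, DGCR8 and XPO5; 36.5% of all genes), against 0, while 1 had higher and 4 had lower synthesis (22.8% and 28.2% of all genes), against 0 each. The median log2 half-life ratio of the members, -0.12, became 0.019 as a mean. All 10 members, against 6, had 10 or more coding motifs at 50 nt or at any distance from a junction; at 200 nt and with APPRIS principal transcripts, the latter chosen after seeing the data, the count stayed within 1.5 times.

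In the order longer-lived and shorter-lived, counts at 2-fold became 1 and 0 of 15 nuclear cofactors (3 and 3 at 1.5-fold). Of 20 host transcripts they became 1 and 1 (2 and 2). Shorter-lived counts at 2-fold became 0 for precursor partners (1), 4 for Argonaute partners (10) and 0 for silencing effectors (9). At the looser rule, 7 of 15 nuclear cofactors and 8 of 20 host transcripts were shorter-lived, against 36.5% of all genes. Longer-lived silencing effectors became 5 of 24 (2), against 35.4% of all genes. With both half-lives between 0.5 and 24 h, longer-lived counts became 1 for precursor partners, 1 for Argonaute partners, 0 for silencing effectors and 1 for host transcripts, each from 2, and shorter-lived host transcripts became 1. Without genes at the ceiling, longer-lived Argonaute partners and host transcripts became 1 each. The causes were not tested beyond the number of genes left. In all, 54 of 78 recomputed values stayed within 1.5 times the reported count, or within 0.05 of the reported median, 23 moved further and 1 changed sign. Some of the 54 could not have moved. All 10 members lay between 0.5 and 24 h and below the ceiling, so those settings left every member in. A member count of 0 could not fall at 2-fold. Centring on the median of all genes, -0.005 for half-life and -0.057 for synthesis, moved no count by over 1.5 times.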
